A study of Canis lupus familiaris with 2 samples.

Results

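The 9 genes described here encode subunits of the ionotropic glutamate receptors, the ligand-gated channels through which glutamate excites neurons. They were taken by name from the gene lists of both dogs, in which all 9 of 9 occur among the 15224 names the lists share: *GRIA1*, *GRIA2*, *GRIA3* and *GRIA4* of AMPA receptors, *GRIK1* and *GRIK2* of kainate receptors, and *GRIN1*, *GRIN2A* and *GRIN2B* of NMDA receptors. Single cells came from neuroretina punches of 2 normal (wild-type) male dogs aged 40 weeks, N350 and N354, dissociated after trypsin and profiled by droplet-based 3' RNA sequencing, with 1 library per dog. Of 13292 deposited cells, 13282 had at least 200 genes and were used, 8895 from N350 and 4387 from N354. Their median depth was 1298 and 1204 UMIs, a UMI being 1 counted RNA molecule.

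In the retina, photoreceptors release glutamate in the dark. ON bipolar cells sense it through a metabotropic receptor, mGluR6 (encoded by *GRM6*), whereas OFF bipolar cells and horizontal cells sense it through ionotropic receptors of the AMPA and kainate kinds. Bipolar cells in turn release glutamate onto amacrine and ganglion cells, which carry AMPA and NMDA receptors. AMPA and kainate receptors are assemblies of subunits, and the GRIA2 subunit, once its RNA is edited, makes an AMPA receptor poorly permeable to calcium. An NMDA receptor needs GRIN1 together with a GRIN2 or GRIN3 subunit. Glia also make AMPA receptor subunits.

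Cells were put in classes by UMIs of marker genes, none of them a receptor gene of the 9. Rods numbered 4975 in N350 and 2996 in N354, cones 310 and 178, ON bipolar cells (rod bipolar cells included) 299 and 254, OFF bipolar cells 41 and 23, horizontal cells 138 and 25, amacrine cells 306 and 37, Müller glia 1070 and 491, and astrocyte-like glia 182 and 62. A further 115 neurons with *EBF3* and 24 ganglion-like cells came almost wholly from N350, with 3 and 1 cells in N354, and are given as values of N350 with no test. Amacrine cells were gated on *GAD1*, *GAD2*, *SLC32A1*, *TFAP2A*, *TFAP2B*, *TFAP2C* and *C1QL2*. The *EBF3* neurons, gated on *EBF3* and *SLC6A9*, lay outside that gate, so the amacrine class need not hold all amacrine cells. OFF bipolar cells held at least 1 UMI of a cone bipolar marker and 2 of bipolar markers in all. None held a UMI of *TRPM1*, *GRM6*, *GPR179* or *NYX*. Limits were 50 UMIs per 10000 for the 8 ON markers and 20 each for cone and Müller markers. The ON markers still summed to 23.2 and 21.5 per 10000 in this class, against 140.1 and 199.5 in ON bipolar cells. Of these, *GNG13* stood at 11.1 and 14.7 and *PCP2* at 5.685 and 1.94 in OFF bipolar cells. *ISL1*, a transcription factor of ON bipolar cells that the gate did not use, had 524 and 537 UMIs in ON bipolar cells and 0 and 0 in OFF bipolar cells, which allows a level of up to 0.341 and 0.581. Markers of rods, the most abundant cells, summed to between 4.85 and 31.6 UMIs per 10000 in the 7 other tested classes. The counts of the 2 dogs were made on different gene annotations, so a difference between the dogs and a difference between annotations cannot be told apart. Depth also differed between classes, with a median of 1079 and 1010 UMIs in rods and of 9330 and 4474 in horizontal cells. So did the median share of UMIs on 13 mitochondrial genes, at 13.7% and 17.6% in ON and 14.3% and 10.5% in OFF bipolar cells. It was 4.975% and 6.16% in rods, and levels count these UMIs in the total.

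Levels are UMIs of a gene per 10000 UMIs of all genes in the class, with exact Poisson 95% intervals, and shares of cells carry exact binomial (Clopper-Pearson) 95% intervals; both cover counting error only. Contrasts between classes were tested with edgeR's quasi-likelihood test on the UMI sums of each class and dog, with dog as a block and Benjamini-Hochberg adjustment over 12046 genes. The p-values rest on 2 dogs. Fitted folds rest on genes named in both dogs, scaled by edgeR's TMM factors. Ratios of levels rest on UMIs of all genes, so fitted folds and ratios can be offset. The SE of a fold is its absolute log2 value over the square root of the test's F statistic, as the test gives no SE.

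Across the 8 classes found in both dogs, 7 of the 9 genes had their highest level in the same class in each dog. *GRIK1* and *GRIK2* led in OFF bipolar cells, *GRIA1* in astrocyte-like glia, and *GRIA2*, *GRIA4*, *GRIN1* and *GRIN2A* in amacrine cells. *GRIA3* led in amacrine cells of N350 and in horizontal cells of N354. *GRIN2B* was close to absent, with 11 and 9 UMIs in all cells.

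**Figure D1:**
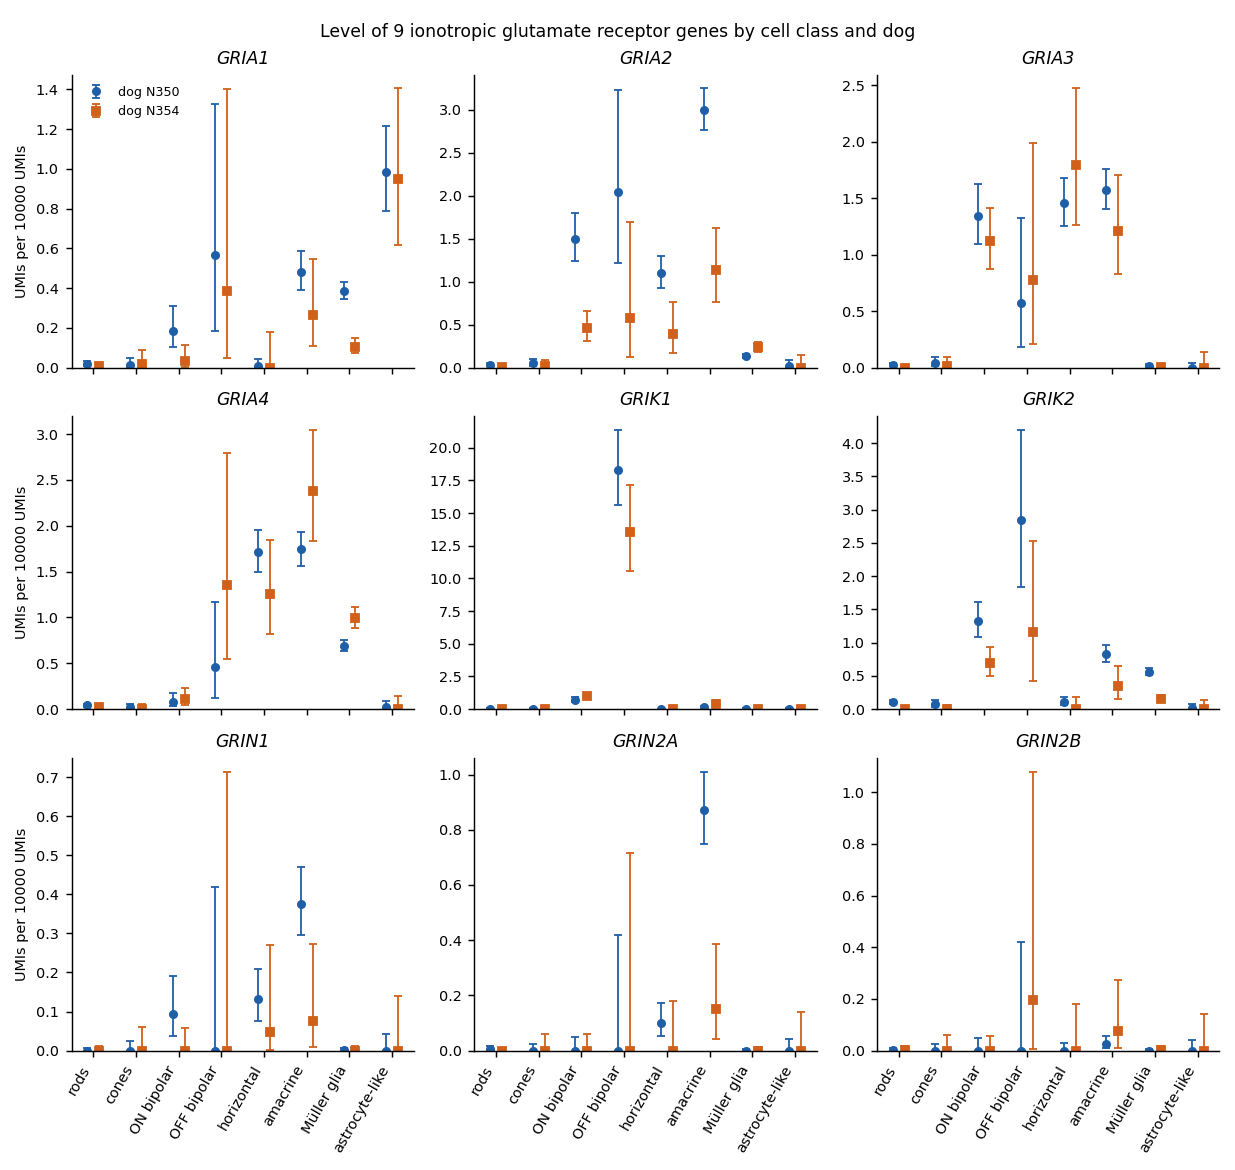
Levels of the 9 genes (UMIs per 10000 UMIs, linear axes from 0) in 8 cell classes of dog N350 (blue circles) and dog N354 (orange squares), with exact Poisson 95% intervals. *GRIK1* stands at 18.3 and 13.6 in OFF bipolar cells and below 1 in every other class shown, and *GRIA1* has its highest point in astrocyte-like glia in both dogs.

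*GRIK1*, which encodes the kainate receptor subunit GluK1, was far higher in OFF bipolar cells than in the 7 other classes tested. Its level there was 18.3 in N350 (95% interval 15.6 to 21.4) and 13.6 in N354 (10.6 to 17.1), or 15.9 ± 3.35 (SD, n = 2 dogs). In ON bipolar cells the level was 0.703 and 0.978, in amacrine cells 0.158 and 0.378, in Müller glia 0.0332 and 0.0316, and in rods 0.0277 and 0.0340. The dogs' ranges of the first 4 classes in this order, OFF bipolar, ON bipolar, amacrine and Müller, did not overlap, while Müller glia and rods were not separated. Horizontal cells and astrocyte-like glia held no *GRIK1* UMI in either dog, and in horizontal cells that count allows a level of up to 0.0231 in N350 and 0.145 in N354.

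OFF bipolar cells held 37.3% of all *GRIK1* UMIs of N350 and 32.0% of those of N354, although they gave only 0.367% and 0.533% of the UMIs of all genes. *GRIK1* was seen in 37 of 41 OFF bipolar cells of N350 (90.2%, 95% interval 76.9 to 97.3) and in 19 of 23 of N354 (82.6%, 61.2 to 95.05). Only 12.7% of ON bipolar cells (9.15 to 17.0) had one in N350, and 11.8% (8.11 to 16.4) in N354. Rods, taken as the background for free RNA, had a UMI in 0.302% and 0.234% of cells, and the deeper Müller glia in 0.935% and 1.43%. Thinned to 1000 UMIs a cell, which left out 7 and 4 OFF and 29 and 15 ON bipolar cells, the shares were 76.8% and 64.0% in OFF against 6.32% and 5.91% in ON bipolar cells, so the classes stood apart at equal depth too.

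**Figure D2:**
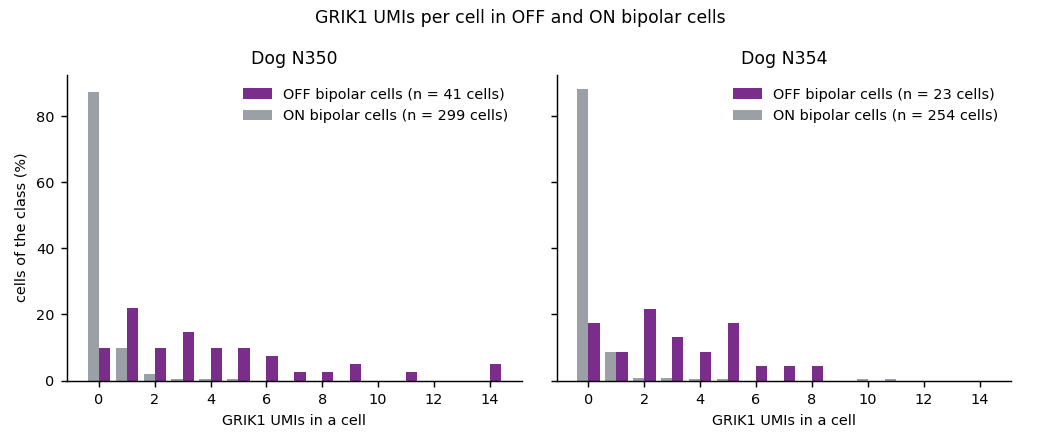
Share of OFF (purple) and ON (grey) bipolar cells, in percent, by the number of *GRIK1* UMIs in the cell, for each dog. The median OFF bipolar cell held 3 UMIs in both dogs and the median ON bipolar cell 0, and a few ON bipolar cells reached 5 in N350 and 11 in N354.

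In the contrast of OFF over ON bipolar cells, *GRIK1* was higher by 3.85 ± 0.308 on the log2 scale (edgeR estimate ± SE, adjusted p = 2.04e-08). The ratio of the levels was 26.1 in N350 (95% interval 19.0 to 36.2) and 13.9 in N354 (9.72 to 19.9). Without the dog block the adjusted p was 0.0613. The few *GRIK1* UMIs of ON bipolar cells were uneven: 3 cells of N350 with 3 or more held 22.6% of them, and 6 cells of N354 held 58.1%. In a split chosen after seeing the data, ON bipolar cells with a UMI of *VSX1*, *TACR3*, *IRX6*, *FEZF2* or *SAMSN1*, markers of cone bipolar cells, had 1.80 times the *GRIK1* level of those without in N350 (0.994 to 3.38) and 5.76 times in N354 (2.89 to 12.7). The cells with such a marker were also deeper, with a median of 2991 and 2794 UMIs against 1801 and 2164; the part of depth in this ratio was not tested.

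*GRIK2*, which encodes the kainate subunit GluK2, was spread more widely. Its level was 2.84 and 1.16 in OFF bipolar cells, 1.33 and 0.694 in ON bipolar cells, 0.833 and 0.340 in amacrine cells, and 0.559 and 0.158 in Müller glia. In each dog the order was the same, but the ranges of the dogs overlapped between neighbouring classes down to Müller glia. The *EBF3* neurons of N350 stood at 1.81 (1.43 to 2.28), above its amacrine cells, whose level was 0.459 times as high (0.348 to 0.611). Horizontal cells had 14 UMIs (0.108) in N350 and 0 in N354, and astrocyte-like glia had 2 and 0.

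OFF over ON bipolar cells, the *GRIK2* difference was 0.43 ± 0.534 (log2, edgeR, adjusted p = 0.847) and did not pass. On UMIs of all genes, another scale than that of the fit, the ratio of levels was 2.14 in N350 (1.33 to 3.35) and 1.68 in N354 (0.584 to 3.95). Of the UMIs of the pair, *GRIK1* made up 86.6% (80.8 to 91.1) in OFF bipolar cells of N350 and 92.1% (83.6 to 97.0) in those of N354, against 34.6% and 58.5% in ON bipolar cells and 5.61% and 16.7% in Müller glia. These shares are compared between classes and not between the genes, since the annotations may catch the genes' 3' ends unequally.

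The AMPA receptor genes differed in which classes carried them. *GRIA1*, which encodes GluA1, was at 0.983 (0.786 to 1.21) in astrocyte-like glia of N350 and at 0.952 (0.616 to 1.41) in those of N354, or 0.967 ± 0.0219 (SD, n = 2 dogs). OFF bipolar cells followed at 0.568 and 0.388, from 5 and 2 UMIs, amacrine cells at 0.483 and 0.264, and Müller glia at 0.386 and 0.104. The astrocyte-like glia of both dogs were above every other class tested; OFF bipolar cells, amacrine cells and Müller glia overlapped in that order, and the counting interval of the few OFF bipolar cells (up to 1.33 and 1.40) reached the astrocyte-like level. Horizontal cells were almost without *GRIA1*, with 1 UMI in N350 and 0 in N354. The *EBF3* neurons of N350 reached 0.944 (0.671 to 1.29), whose interval overlaps that of its astrocyte-like glia.

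*GRIA2*, which encodes GluA2, was at 2.999 (2.77 to 3.25) in amacrine cells of N350 and at 1.13 (0.765 to 1.62) in those of N354. It was 2.05 and 0.581 in OFF bipolar, 1.498 and 0.457 in ON bipolar, and 1.10 and 0.388 in horizontal cells. The 4 classes kept this order in each dog, but the dogs lay so far apart that neighbouring ranges overlapped. Müller glia were at 0.133 and 0.234, and rods, cones and astrocyte-like glia at 0.0476 or less. The highest *GRIA2* level of N350 was in its *EBF3* neurons, at 4.86 (4.22 to 5.58).

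*GRIA3*, which encodes GluA3, was carried by inner retinal neurons and almost by nothing else. It stood at 1.46 and 1.79 in horizontal cells, 1.57 and 1.21 in amacrine cells, 1.34 and 1.12 in ON bipolar cells, and 0.568 and 0.775 in OFF bipolar cells. The first 3 of these classes overlapped, and OFF bipolar cells, with 5 and 4 UMIs, were below them in both dogs, though with counting intervals (0.185 to 1.33 and 0.211 to 1.98) that overlap theirs. Müller glia had 12 and 2 UMIs and astrocyte-like glia 0 and 0.

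*GRIA4*, which encodes GluA4, separated ON bipolar cells from the other inner neurons and Müller from astrocyte-like glia. Its level was 1.74 and 2.38 in amacrine cells, 1.71 and 1.26 in horizontal cells, 0.455 and 1.36 in OFF bipolar cells and 0.691 and 0.995 in Müller glia. Amacrine and horizontal cells were close in N350, with a ratio of 0.984 (0.828 to 1.17) for horizontal over amacrine, and apart in N354 (0.529, 0.322 to 0.848). ON bipolar cells stood at only 0.0795 and 0.110, and astrocyte-like glia had 2 and 0 UMIs. Müller glia with a *GRIA4* UMI made up 32.2% (29.5 to 35.1) in N350 and 41.8% (37.4 to 46.2) in N354, against 0.462% and 0.167% of the shallower rods; thinned to 1000 UMIs the shares were 6.07% and 9.91% against 0.331% and 0.123%.

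The make-up of the AMPA UMIs set astrocyte-like glia apart from Müller glia and from inner retinal neurons. *GRIA1* gave 86 of 90 AMPA UMIs in astrocyte-like glia of N350 (95.6%, 89.0 to 98.8) and 25 of 25 in those of N354. In Müller glia *GRIA4* gave 56.4% (53.1 to 59.6) and 74.3% (69.8 to 78.4). The dogs differed there in *GRIA1*, which gave 31.5% (28.5 to 34.6) in N350 and 7.78% (5.42 to 10.8) in N354. As for the kainate pair, these shares are for comparing classes and not genes, since 3' ends may be caught unequally. The *GRIA4* share was 40.1% and 36.6% in horizontal cells, and 25.6% and 47.7% in amacrine cells. In OFF bipolar cells it was 12.5% in N350 and 43.8% in N354. The latter rests on 16 AMPA UMIs, with an interval (19.8 to 70.1) that overlaps that of Müller glia. In ON bipolar cells *GRIA2* and *GRIA3* together left 5.98% to *GRIA1* and 2.56% to *GRIA4* in N350, and 1.83% and 6.42% in N354. *GRIA2* gave a smaller share in horizontal cells, 25.6% (22.0 to 29.5) and 11.3% (4.99 to 21.0), than in amacrine cells, 44.1% (41.5 to 46.8) and 22.7% (15.9 to 30.8); the intervals were apart in N350 and overlapped in N354. Horizontal over amacrine cells, the *GRIA2* level had a ratio of 0.365 (N350; 0.302 to 0.439) and 0.342 (N354; 0.136 to 0.764), and the *GRIA3* level one of 0.927 (0.770 to 1.11) and 1.48 (0.899 to 2.46).

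**Figure D3:**
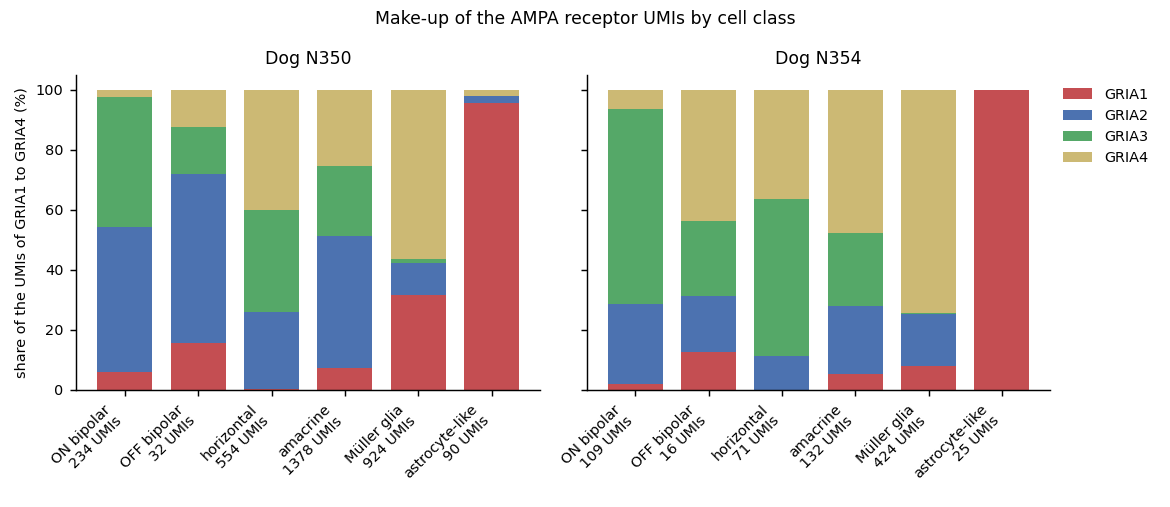
Share of each of *GRIA1* to *GRIA4* in the AMPA receptor UMIs (percent, stacked to 100) of 6 classes in each dog, with the number of AMPA UMIs under each bar. Astrocyte-like glia are almost wholly *GRIA1*, and Müller glia mostly *GRIA4*, in both dogs; bars that rest on few UMIs, such as OFF bipolar cells with 32 and 16, are imprecise.

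The NMDA receptor genes were found in amacrine cells, *EBF3* neurons and ganglion-like cells, at low levels. *GRIN1*, which encodes the subunit common to NMDA receptors, was at 0.375 (0.295 to 0.469) in amacrine cells of N350, with 76 UMIs, and at 0.0756 in those of N354, with 2. *GRIN2A* was at 0.873 (0.749 to 1.01) in amacrine cells of N350, with 177 UMIs, and at 0.151 (0.0412 to 0.387) in N354, with 4. In N354 these counts are at the edge of what its 37 amacrine cells can show, since a count of 0 would allow a level of up to 0.113. The 24 ganglion-like cells of N350 stood at 0.476 (0.266 to 0.785) for *GRIN1* and 0.730 (0.463 to 1.09) for *GRIN2A*. Neither differed from amacrine cells beyond counting error, with ratios of 0.788 (0.449 to 1.48) and 1.20 (0.772 to 1.94) for amacrine over ganglion-like cells. The amacrine gate's markers had a median of 7.98 UMIs per 10000 in ganglion-like cells of N350, against 20.6 in its amacrine cells. The share limit of that gate was 5. The ganglion-like class may thus hold some amacrine cells, and their part in this likeness was not tested. In these ganglion-like cells the *GRIN2A* UMIs sat in 6 cells, 14 of 23 in 1 of them. The *EBF3* neurons stood at 0.315 (0.168 to 0.538) and 0.508 (0.315 to 0.777). Horizontal cells had 17 and 1 UMIs of *GRIN1* and 13 and 0 of *GRIN2A*, and *GRIN1* had 7 and 0 in ON bipolar cells.

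*GRIN2A* was not detected in ON or OFF bipolar cells, Müller glia or astrocyte-like glia of either dog. For the 1070 and 491 Müller glia a count of 0 allows a level of up to 0.00398 and 0.00947. Amacrine cells stood at 219 and 15.9 times that level. With the counting error of both classes, the exact lower limits of the ratio were 176.5 and 7.90. For OFF bipolar cells a count of 0 allows up to 0.341 and 0.581, which leaves room for the level of amacrine cells in N354. *GRIN2B* had its most UMIs in amacrine cells, 5 and 2. In N354 its highest level was that of OFF bipolar cells, 0.194, which is 1 UMI and has an interval of 0.00491 to 1.08.

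Of the 6 contrasts tested, OFF over ON bipolar cells called 2 of the 9 genes higher and 0 lower, against 3.64% of all 12046 genes called in either direction, 1.57% higher and 2.07% lower. Besides *GRIK1*, *GRIA4* was higher by 2.66 ± 0.717 (log2, edgeR, adjusted p = 0.0336). That call rests on 4 and 7 UMIs in OFF bipolar cells, and the ratio of levels was 5.72 for N350 (1.19 to 24.1) and 12.3 for N354 (3.68 to 41.1). *GRIA1* was at 1.67 ± 0.791 and *GRIA3* at -1.39 ± 0.563, and neither passed. The median over the 6 genes seen in both classes was 1.05, against -0.25 over all genes, those with no UMI in a class included. It was 1.67 with *GRIN2B* (1 UMI against 0 in N354) entered at its fold against 3 counts. That fold is no bound, as the exact lower limit of the *GRIN2B* ratio was 0.315. *GRIN1*, with 0 UMIs against 7 in N350, did not enter. Without the dog block neither gene was called.

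Horizontal over ON bipolar cells called 2 of 9 higher and 3 lower, where 27% of all genes were called, 13.7% higher and 13.3% lower. *GRIA4* was higher by 4.12 ± 0.419 (edgeR adjusted p = 2.55e-08). *GRIN2A*, with no UMI in ON bipolar cells, was also called higher (edgeR adjusted p = 0.0159). With 13 and 0 UMIs in horizontal cells, that call rests on N350 alone. The exact lower limit of the *GRIN2A* ratio in N350 was 1.77. *GRIA1*, with 1 and 0 UMIs against 14 and 2, fell by 4.16 on the log2 scale (SE 1.06, edgeR adjusted p = 0.00418) and *GRIK2* fell by 3.99 (SE 0.604, adjusted p = 1.32e-05). *GRIK1*, with no UMI in horizontal cells, was called lower there (edgeR adjusted p = 7.37e-08). The exact lower limit of this fold was 23.8 in N350 and 5.31 in N354. The difference of *GRIA2* was -0.22 ± 0.421 and that of *GRIA3* 0.38 ± 0.323, neither past the threshold. The median was 0.08 over 6 genes seen in both classes, and 0.08 over 8 with bounds, against -0.08 over all genes. DESeq2 did not call *GRIN2A* (adjusted p = 0.683), and without the dog block *GRIA4* and *GRIK1* alone were called.

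Amacrine over ON bipolar cells called 4 of 9 higher and 1 lower, beside 25.8% of all genes, 15.7% higher and 10.1% lower. *GRIA4* was higher by 4.23 ± 0.408 (edgeR adjusted p = 1.44e-08), with ratios of 21.9 (9.96 to 60.1) and 21.6 (9.87 to 55.8) in the dogs. *GRIA1* was higher by 1.61 ± 0.481 (edgeR adjusted p = 0.0144) and *GRIN1* by 2.18 ± 0.725 (edgeR adjusted p = 0.0302). *GRIN2A*, absent from ON bipolar cells, was called higher (edgeR adjusted p = 1.07e-05). The exact lower limit of the *GRIN2A* ratio was 17.7 in N350 and 1.58 in N354, where amacrine cells held 4 UMIs. *GRIK1* fell by 2.17 (SE 0.377, edgeR adjusted p = 0.000114). *GRIA2* stood at 0.99 ± 0.381 with an adjusted p of 0.0574, and passed with another scaling (0.0425) and with no filter on low counts (0.0345). *GRIN1* and *GRIN2A* were not called by DESeq2 (adjusted p = 0.836 and 0.423), and without the dog block *GRIA4* alone was called. The median was 0.99 over 7 genes, and 0.99 over 9 with bounds, against 0.11 over all genes.

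Cones over rods called 0 of the 9 by edgeR, where 19.8% of all genes were called, 10.8% higher and 9.04% lower. DESeq2 called 0 of the 9 too. The photoreceptors held few UMIs of these genes: at most 0.103 per 10000, for *GRIK2* in rods of N350, which had 63 UMIs, while rods of N354 had 0. *GRIA3* was at 1.35 ± 0.823 (adjusted p = 0.289) and *GRIA2* at 0.70 ± 0.898 (adjusted p = 0.656), both by edgeR. The median was -0.11 over 6 genes seen in both classes against -0.16 over all genes.

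Müller glia over rods called 4 of the 9 higher and 0 lower, where 56.2% of all genes were called, 32.2% higher and 24% lower. *GRIA4* was higher by 5.24 ± 0.337 (edgeR adjusted p = 1.68e-12), *GRIA1* by 4.70 ± 0.425 (6.16e-10), *GRIA2* by 3.75 ± 0.510 (6.66e-07) and *GRIK2* by 3.39 ± 0.429 (2.20e-07). The dogs differed in size for *GRIA2*, whose ratio was 3.88 for N350 (2.41 to 6.54) and 41.2 for N354 (11.0 to 347), where rods held 2 UMIs. For *GRIK2* the ratio was 5.44 (4.17 to 7.21) in N350. In N354, where rods held 0 UMIs, its exact lower limit was 14.55. The median was 3.39 over 7 genes and 2.05 over 8 with bounds, against 0.09 over all genes. Without the dog block not all of the 4 calls held.

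Astrocyte-like over Müller glia called 1 of 9 higher and 4 lower, beside 19.9% of all genes, 7.47% higher and 12.4% lower. *GRIA1* was higher by 1.36 ± 0.334 (edgeR adjusted p = 0.00384), with a ratio of 2.55 (1.98 to 3.25) in N350 and 9.13 (5.21 to 15.8) in N354. *GRIA4* fell by 6.11 (SE 0.594, adjusted p = 2.01e-08), *GRIK2* fell by 5.26 (SE 0.856, 4.32e-05) and *GRIA2* fell by 4.27 (SE 0.955, 0.00162), all by edgeR; in astrocyte-like glia each had 2 UMIs in N350 and 0 in N354. *GRIK1* was called lower (edgeR adjusted p = 0.0341) with 25 and 10 UMIs in Müller glia and 0 and 0 in astrocyte-like glia, where a count of 0 allows 0.0343 and 0.114, at or above the Müller level, and the call was lost with another scaling (0.0590). The median was -4.76 over 4 genes seen in both classes against -0.18 over all genes. Without the dog block *GRIA4* alone was called.

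**Figure D4:**
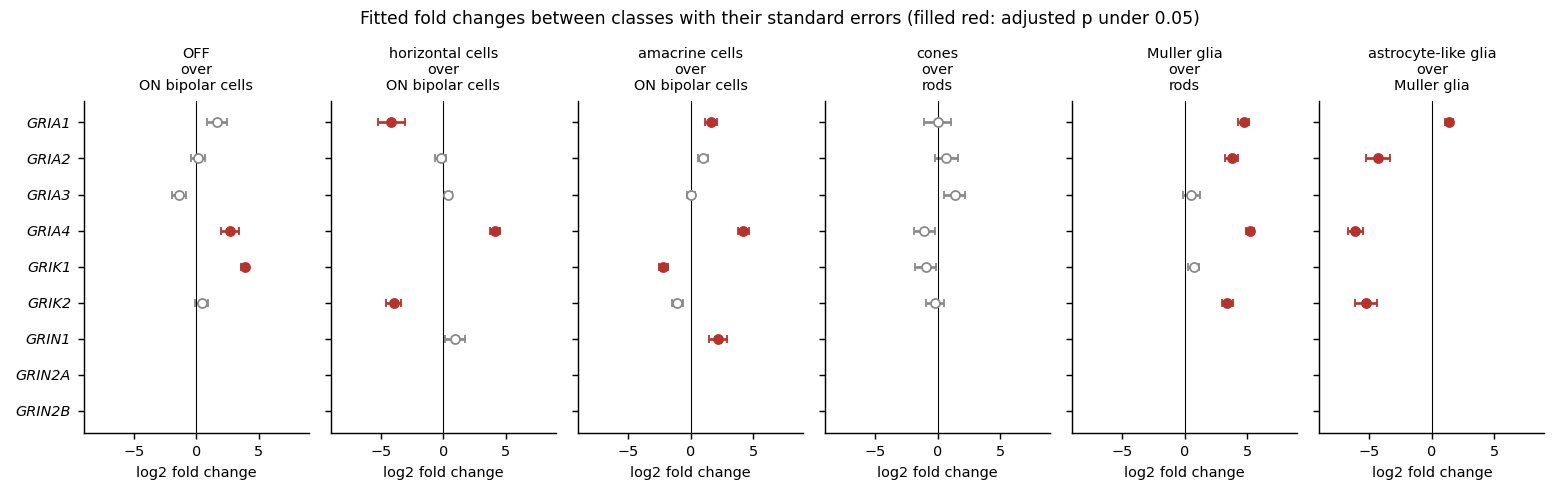
Log2 fold changes of the 9 genes in 6 contrasts (edgeR estimate, bars are standard errors worked back from the F statistic, 2 dogs), filled red where the adjusted p is under 0.05. Genes with no UMI in 1 of the classes, or under 10 UMIs in the pair, are not drawn, which leaves out *GRIN2A* and *GRIN2B* throughout; *GRIA4* lies at 4.12 and 4.23 in the contrasts of horizontal and amacrine over ON bipolar cells and at -6.11 in the last.

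The other genes of the glutamate receptor machinery were read from 3 lists, of further subunits (7 of 9 tested), auxiliary subunits (14 of 15) and anchoring or regulating proteins (13 of 17). Auxiliary subunits, which steer AMPA and kainate receptors to the membrane and set their gating, were called higher in amacrine over ON bipolar cells for 10 of 14 and lower for 1, where 15.7% of all genes were called higher and 10.1% lower, with a median of 3.04 over 11 genes and 3.24 over 14 with bounds against 0.11 over all genes. *CACNG3*, a TARP that binds AMPA receptors, rose by 6.41 ± 0.751 on the log2 scale (adjusted p = 5.93e-07), *GSG1L* by 6.78 ± 0.799 (8.91e-07) and *CNIH2*, a cornichon protein, by 4.99 ± 0.676 (3.86e-06), all by edgeR. Without the replicate block, edgeR's adjusted p was 0.0854 for *CACNG3*, 0.0806 for *GSG1L* and 0.345 for *CNIH2*. DESeq2 did not call *GSG1L* (0.430). *CNIH2* had 538 UMIs in N350 and 3 in N354, so its call rests on N350. Other calls of this list also rest mostly on amacrine cells of N350. The UMIs there and in N354 were 199 and 2 for *CACNG5*, 80 and 0 for *CACNG7* and 19 and 0 for *CNIH3*. For *NETO2* they were 88 and 3, and for *SHISA7* 32 and 1. More were seen in N354 for *CACNG2* (97 and 26), *CACNG3* (203 and 11), *GSG1L* (228 and 20) and *SHISA9* (66 and 19). *NETO1*, an auxiliary subunit of kainate receptors, fell by 1.85 (SE 0.522, edgeR adjusted p = 0.0112) and had no UMI in horizontal cells of either dog, where it was called lower than in ON bipolar cells as well (9.65e-06). *NETO2*, of the same list, went the other way in amacrine over ON bipolar cells (edgeR adjusted p = 0.000387), with 0 UMIs in ON bipolar cells of both dogs.

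In OFF over ON bipolar cells 1 of 14 auxiliary subunits and 1 of 13 anchors passed, and 0 of 7 further subunits, where 3.64% of all genes were called. The TARP *CACNG2* (stargazin) was higher by 3.18 ± 0.731 (edgeR adjusted p = 0.0108), from 9 and 3 UMIs against 3 and 7, and *DLG2*, a scaffold protein also called PSD-93, fell by 1.33 (SE 0.338, adjusted p = 0.0216), a call lost with another scaling (0.0969) and by DESeq2 (0.207). *GRIP1*, which binds GluA2 and GluA3, was higher in amacrine over ON bipolar cells by 5.44 ± 0.727 (3.20e-06) and in cones over rods by 5.04 ± 0.532 (7.71e-08). *ADARB1*, the enzyme that edits *GRIA2* RNA, was higher in amacrine over ON bipolar cells by 1.86 ± 0.442 (edgeR adjusted p = 0.00244) and in Müller glia over rods by 2.74 ± 0.399 (1.91e-06).

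In Müller glia *OLFM2*, a secreted protein found with AMPA receptors, was at 7.34 and 5.36 and higher than in rods by 6.47 ± 0.330 (edgeR adjusted p = 1.65e-13), and *CACNG4* by 5.04 ± 0.549 (3.41e-08). In astrocyte-like over Müller glia *OLFM2* fell by 3.95 (SE 0.327, edgeR adjusted p = 2.39e-09), the direction also seen for *GRIA4* and *GRIK2*. *CACNG4* did not pass in that contrast (-0.24 ± 0.486, log2), at 0.251 and 0.343 in astrocyte-like and 0.154 and 0.297 in Müller glia. In Müller glia over rods, 3 of the 7 further subunits, 5 of the 14 auxiliary subunits and 6 of the 13 anchors were called higher, against 32.2% of all genes, and 1, 0 and 2 were called lower, against 24%.

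The levels of the dogs agreed within counting error for some of the 9 genes and not for others. *GRIK1* in N354 over N350 was 0.741 (0.552 to 0.987) in OFF bipolar cells, 1.39 (0.949 to 2.05) in ON bipolar cells, and 2.39 (1.05 to 4.99) in amacrine cells. *GRIA4* was higher in N354 in amacrine cells, at 1.37 (1.03 to 1.79), and in Müller glia, at 1.44 (1.25 to 1.66). *GRIA3* lay between 0.768 and 1.23 in amacrine, ON bipolar and horizontal cells with every interval across 1. *GRIK2* was lower in N354 in each of the 5 classes with at least 20 UMIs, from 0 in rods, whose upper limit was 0.105, to 0.523 (0.359 to 0.753) in ON bipolar cells, with an interval across 1 in OFF bipolar cells (0.409, 0.137 to 1.02). *GRIA2* was lower in N354 in the 4 inner neuron classes, from 0.284 to 0.378, yet higher in Müller glia at 1.76 (1.29 to 2.40). *GRIA1* was lower in Müller glia at 0.270 (0.182 to 0.388) but close to equal in astrocyte-like glia at 0.968 (0.594 to 1.53).

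*GRIN1* and *GRIN2A* had 167 and 302 UMIs over all cells of N350 and 4 and 5 over those of N354. Within amacrine cells their ratio was 0.201 (0.0240 to 0.754) and 0.173 (0.0466 to 0.451). Such gaps were not rare: of 6126 genes with at least 50 UMIs in amacrine cells of the 2 dogs together, 14.9% were more than 4-fold apart, and 13.2% and 10.3% had a ratio as low as *GRIN1* and *GRIN2A*.

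**Figure D5:**
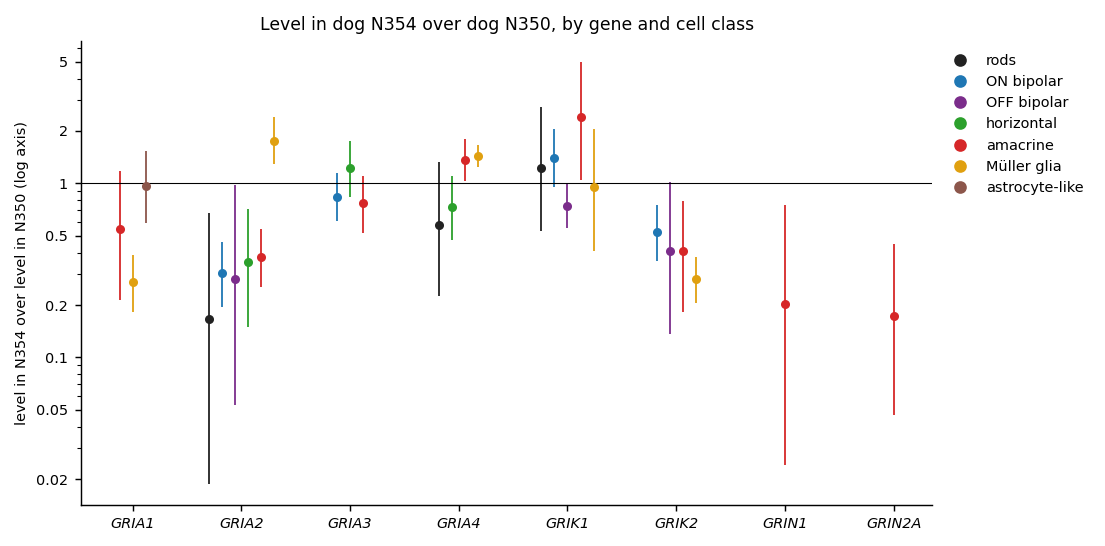
Level in dog N354 divided by the level in dog N350 (log axis) for each gene and class with at least 20 UMIs, with exact 95% intervals for counting error; the line marks equal levels. *GRIK2* lies below the line in every class shown, and *GRIA2* lies below it in neurons and at 1.76 in Müller glia. *GRIK2* in rods, with no UMI in N354, is not drawn.

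Genes whose levels across the 8 classes were most like those of each gene were named by the highest mean over the dogs of Pearson's r of log2(level + 0.1), among 8008 genes with at least 50 UMIs in each dog, as a description with 8 classes that share libraries. For *GRIK1* they were *ANKRD55* (r = 0.968), *SLITRK6* (0.964) and *ZNF804B* (0.963). For *GRIA3* they were *SYT4* (0.982), *ST8SIA3* (0.963) and *PCBP3* (0.962), and for *GRIA2* *PDE3A* (0.954), *PCBP3* (0.949) and *PRRT1* (0.941), the last of which encodes a protein found with AMPA receptors. For *GRIA4* they were *SEPTIN6* (0.950), *SELENOM* (0.929) and *BASP1* (0.902), for *GRIA1* *CYP7B1* (0.926), *GPRC5B* (0.925) and *PSME1* (0.922), and for *GRIK2* *GUCY1B1* (0.937), *GNMT* (0.933) and *MMD* (0.932). *GRIN1*, *GRIN2A* and *GRIN2B* had under 30 UMIs in N354 and were not compared.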

How the data were processed

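The deposited values were raw UMI counts per gene and cell, which the authors made with Cell Ranger (version 6.0.2 in the file headers), with canFam6 named as the genome; nothing was normalized. Totals were 24030707 UMIs in N350 and 9711202 in N354. Of the cells, 10 with under 200 genes were left out. No mitochondrial limit was set, because under 5% of UMIs on genes with MT- names left 1369 cells of N354 and, as N350 names its mitochondrial genes otherwise, all 8895 of N350. The libraries shared 6 barcodes.

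Cells were gated on shares of UMIs of marker genes named in both dogs, by a scoring rule settled after the markers' distributions were seen. Cells in 2 gates (104 and 30) or in a non-rod gate with at least 150 rod UMIs per 10000 (156 and 116) were left out as likely doublets; 1131 and 162 passed no gate.

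UMIs were summed per dog and class of at least 20 cells in both dogs, and genes with at least 10 UMIs were tested with edgeR 4.0.16 (TMM, dog as a block). The block was used because each dog gave every sum under its name: the deviations of a dog correlated between classes by 0.407 to 0.816 over 28 pairs of classes. A fold against a class with no UMI was computed per library against 3 counts. That fold leaves out the counting error of the other class, so lower limits of ratios are those of the exact interval. Medians given with bounds use that fold, also where the other class held fewer than 3 UMIs, and are not lower limits. Medians over all genes take in every tested gene, also those with no UMI in a class. In every contrast they thus rest on another filter than the medians of the 9 genes and of the lists. All 9 genes were named, other listed genes only when past an adjusted p of 0.05, and the 3 genes of most like pattern for each gene with at least 30 UMIs per dog. Members and lists were chosen with earlier results of these data known. Alternatives were DESeq2 1.42.0, its size factors, no block, no filter, other limits on cells, other denominators and each dog alone. Ganglion-like over ON bipolar cells could not be tested, with 1 cell in N354. Sequences and genome coordinates are not given, as no genome of the files' build was used here. Some results for listed genes are not reported here.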

Additional observations from a re-analysis of the deposited data

Results flagged for a closer look

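Cells that passed no gate, 1131 in N350 and 162 in N354, entered no comparison, but *GRIN2B* alone of the 9 genes was nowhere above the level that a count of 0 allows in them. *GRIK1* was at 0.829 in N350 and 1.32 in N354, with 119 and 35 UMIs, or 27.5% and 15.98% of all its UMIs. *GRIA2* was at 1.17 and 0.906, *GRIA4* at 0.641 and 1.17, *GRIA3* at 0.502 and 0.755, *GRIA1* at 0.411 and 0.717, and *GRIK2* at 0.592 and 0.453. *GRIN1* was at 0.0767 and *GRIN2A* at 0.0488 in N350. The median depth of these cells was 786 and 958 UMIs.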

How the results depend on the processing

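Without the replicate block, counts of the 9 genes called went from 2 to 0 for OFF over ON bipolar cells, 5 to 2 for horizontal and 5 to 1 for amacrine over ON bipolar cells, and 5 to 1 for astrocyte-like over Müller glia, and counts over all genes from 438 to 21, 3250 to 681, 3103 to 393, 2386 to 262, 6773 to 2076 and 2392 to 195 in the order of the report. In all, 14 calls of the 9 genes were lost without the block, and Müller glia over rods did not keep all of its 4 calls either. DESeq2 called 3 in place of 5 for amacrine over ON bipolar cells. Of 21 calls of the 9 genes, none changed direction under any alternative run, and the 4 lost under DESeq2 were *GRIN2A* and *GRIN1*, *GRIN2A* again in horizontal cells, and *GRIK1* in glia; the stricter gate lost *GRIN1* in amacrine cells (adjusted p = 0.172). Of 62 calls of the other listed genes, 44 were lost without the replicate block, and 11 of 59 by DESeq2. The cause of these changes was not tested. Per UMIs of genes named in both dogs, mean levels in the leading class moved by more than the SD of the dogs for *GRIK1* (15.9 to 21.7), *GRIA1* (0.967 to 1.25), *GRIA3* (1.63 to 2.20) and *GRIA4* (2.06 to 2.65), and without MT- names for *GRIA1* (0.997). Another scaling (RLE) moved the median of all genes by 0.23 in OFF over ON bipolar cells and 0.21 in astrocyte-like over Müller glia, and the share of higher calls from 43.1% to 58.1% and from 37.6% to 51.6%. The share of OFF bipolar cells with a *GRIK1* UMI, 86.4% as the mean of the dogs, was 70.4% thinned to 1000 UMIs and 76.9% to 2000. Dog N350 or N354 alone (without the other) gave log2 ratios of *GRIK1* in OFF over ON bipolar cells of 4.70 and 3.79, and of *GRIA1* in astrocyte-like over Müller glia of 1.35 and 3.19; genes with a class at 0 had no such ratio. Under 5% of UMIs on MT- names, or at most 5% on 13 mitochondrial genes (added after seeing the data), no contrast had 20 cells of both classes in both dogs; at 10%, only the contrasts among rods, cones, Müller glia and astrocyte-like glia did. The stricter gate and a minimum of 1000 UMIs left too few OFF bipolar and horizontal cells in N354, and the stricter gate also too few astrocyte-like glia there. Asking for none of 8 ON markers left too few OFF bipolar cells in both dogs. Few UMIs limit what can be read for *GRIN2B* and for the NMDA genes in N354, where amacrine cells number 37. Few cells limit OFF bipolar cells, which number 41 and 23.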

Other observations

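Part of the *GRIK1* of the cells in no class lay in cells with markers of cone bipolar cells. Cells of no class with a UMI of *VSX1*, *TACR3*, *IRX6*, *FEZF2* or *SAMSN1* and none of *TRPM1*, *GRM6*, *GPR179* or *NYX*, 49 in N350 and 7 in N354, had a *GRIK1* level of 4.56 (3.23 to 6.26) and 5.59 (2.41 to 11.0). Those with a UMI of both kinds, 11 and 7 cells, stood at 12.7 (8.40 to 18.5) and 13.1 (6.27 to 24.0), and the 1071 and 148 with none of the 5 cone bipolar markers at 0.406 (0.305 to 0.530) and 0.700 (0.408 to 1.12). The last kind still held 54 of the 119 *GRIK1* UMIs in N350 and 17 of the 35 in N354. The split was chosen after seeing the data. Among the cells in no class, 18 of N350 and 6 of N354 held 3 or more *GRIK1* UMIs, of which 9 and 4 had no cone bipolar marker, next to 24 and 12 in the OFF bipolar class, so the class does not hold all cells rich in *GRIK1*.

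*GRIA1* in ON bipolar cells had a like split in N350: the 129 cells with a cone bipolar marker held 13 of its 14 UMIs, a level of 0.332 (0.177 to 0.568), and the 170 without held 1, a ratio of 12.1 (1.81 to 512). In N354 there were 2 UMIs with and 0 without, too few to compare. This split was also chosen after seeing the data, and it is not shown to part cone from rod bipolar cells. Cells with a marker were deeper (median 2991 against 1801 UMIs in N350), and the part of depth was not tested. *GRIA4* had 5 UMIs with and 1 without in N350, and 7 and 0 in N354. *GRIA2* had a ratio of 1.63 (1.09 to 2.45) in N350 and 1.57 (0.706 to 3.60) in N354. *GRIA3* and *GRIK2* lay lower with a marker in both dogs, with intervals across 1.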
